A study of Mus musculus with 13 samples.

Results

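The 42 genes described here encode the machinery that makes ribosomes: 6 encode subunits or factors of RNA polymerase I, 4 encode proteins of the box C/D and 5 of the box H/ACA ribonucleoproteins that modify ribosomal RNA, 12 act in the small subunit processome and 40S maturation, 10 in 60S assembly, and 5 are abundant proteins of the nucleolus. They were taken as a list of gene symbols, and the list was matched to the array's probe annotation. All 42 were on the array and all passed the filter on low values, so they are 42 of the 13785 genes tested and their 87 probe sets are part of 45101. Each gene is represented by its brightest probe set on average, and its other probe sets are described near the end. A gene is said to have fallen or risen where its adjusted p was under 0.05 in limma with Benjamini-Hochberg adjustment over all genes tested.

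The samples were SM1 tumours, a transplantable mouse melanoma with the BRAF V600E mutation, grown in C57BL/6 mice and measured on 13 Affymetrix arrays. Every recipient was given an adoptive transfer of splenocytes. Recipients of pmel-1 splenocytes, whose transgenic T cells recognise the melanocyte protein gp100, were given dabrafenib and trametinib together (Pmel_D+T, 3 arrays), dabrafenib (Pmel_D, 2 arrays), trametinib (Pmel_T, 2 arrays) or vehicle (Pmel_V, 2 arrays). Recipients of C57BL/6 splenocytes, the control transfer, were given both drugs (Mock_D+T, 2 arrays) or vehicle (Mock_V, 2 arrays). Dabrafenib inhibits BRAF and trametinib inhibits MEK, so both act on the ERK pathway. Age of the mice, doses, treatment times, the number of cells transferred and any conditioning of the hosts are not given in these sources. Nothing in the labels says that replicates were separate mice, so the p-values measure only the spread between these samples, and the small number of arrays limits the precision.

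A growing cell spends much of its transcription on ribosomes. RNA polymerase I copies the ribosomal RNA genes inside the nucleolus, where the transcript is cut, methylated by box C/D and pseudouridylated by box H/ACA ribonucleoproteins, and assembled with ribosomal proteins into 40S and 60S subunits by a large set of assembly factors. In growing cells ERK signalling is known to activate the initiation factor Rrn3 (TIF-IA) and the promoter factor Ubtf (UBF), and MYC is a known activator of many assembly factor genes.

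The tumours carried the signal of the labelled tissue. The summed level of 7 melanocyte markers, as log2 of the summed intensity, was 16.4 to 16.6 in Pmel_D+T, 16.5 in Pmel_D and 16.5 in Pmel_T tumours, against 15.93 to 15.95 in Pmel_V tumours, and 16.5 to 16.6 in Mock_D+T against 15.8 to 15.9 in Mock_V tumours. The melanosome enzyme gene Tyrp1 was under 5.79, the level of the filter, on every array of Pmel_V, Mock_D+T and Mock_V. Markers of other cell types and RNA quality also moved with the groups. The summed level of 7 leukocyte markers, of which Itgam was under the filter level in every group, was 12.2 to 12.5 in Pmel_D+T, 12.05 to 12.87 in Pmel_D and 11.02 to 11.53 in Pmel_T tumours, against 10.6 in Pmel_V tumours, and 10.9 to 11.2 in Mock_D+T against 10.1 to 10.2 in Mock_V tumours. The summed level of 4 fibroblast markers was 10.86 to 11.68 in Pmel_D+T, 10.001 to 12.29 in Pmel_D and 10.85 to 11.43 in Pmel_T tumours, against 9.86 to 9.96 in Pmel_V tumours, and 12.15 to 12.74 in Mock_D+T against 9.80 to 11.31 in Mock_V tumours, where 2 of the 4 rose. Of 4 endothelial markers 2 rose for Pmel_D+T, 1 for Pmel_D and 2 for Pmel_T against Pmel_V and 1 for Mock_D+T against Mock_V. Over all genes tested 24.3%, 21.8%, 19.5% and 18.7% rose in these comparisons. The 1 erythroid marker tested, Alas2, fell, with log2 changes of -2.36 for Pmel_D+T, -2.14 for Pmel_D and -1.57 for Pmel_T against Pmel_V, and its change of -0.64 for Mock_D+T against Mock_V did not pass. The log2 ratio of 3′ over 5′ probe sets of 4 control mRNAs, a measure of RNA quality, was 1.36 to 1.87 over the Pmel_D+T, Pmel_D and Pmel_T arrays, against 1.25 to 1.28 on the Pmel_V arrays, and 1.004 to 1.04 on the Mock_D+T arrays, against 1.01 to 1.24 on the Mock_V arrays. The 5′ control probe set of 18S ribosomal RNA had log2 levels of 9.07 to 10.07 over the pmel-1 drug arrays, against 11.32 to 11.55 on the Pmel_V arrays, and of 10.21 and 11.65 on the Mock_D+T arrays, against 10.74 and 11.54 on the Mock_V arrays. The middle probe set was also lower on all pmel-1 drug arrays (8.79 to 9.62, against 10.16 to 10.44 in Pmel_V), while the 3′ probe set overlapped (8.95 to 9.88, against 9.51 to 9.69). The part of these controls in the results was not tested beyond the fit with the mRNA ratio given below. In a bulk sample fewer cells of a type and less RNA per cell cannot be told apart.

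Every drug treatment lowered most of these genes. In pmel-1 recipients 36 of the 42 fell with the combination and none rose, where 21.2% of all genes tested fell and 24.3% rose. In control recipients 36 fell with the combination and none rose, where 16.7% of all genes tested fell and 18.7% rose. Dabrafenib alone lowered 31 genes in pmel-1 recipients and raised none, where 19.6% of genes tested fell and 21.8% rose. Trametinib alone lowered 36 and raised none, where 19.1% of genes tested fell and 19.5% rose. The median log2 change over the 42 genes was -0.87 for Pmel_D+T against Pmel_V, -0.999 for Mock_D+T against Mock_V, -0.77 for Pmel_D and -0.89 for Pmel_T against Pmel_V, while the median over all genes tested lay between -0.0032 and 0.0259. The 3 pmel-1 comparisons share the Pmel_V arrays.

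**Figure D1:**
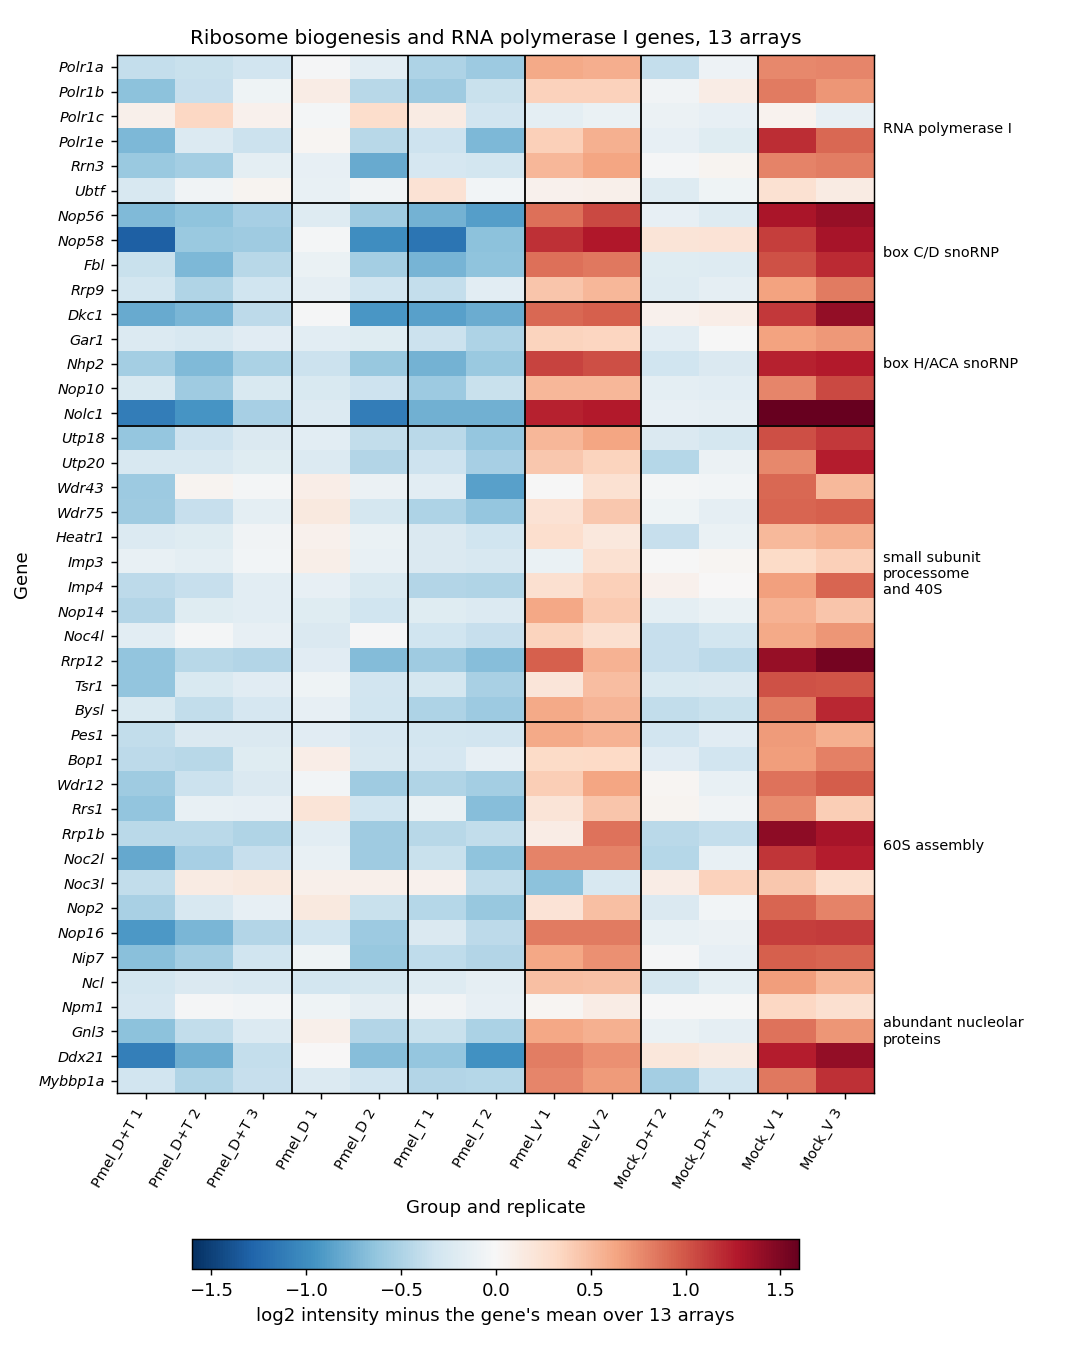
Levels of the 42 genes (rows, ordered by role) on the 13 arrays (columns, by group and replicate), as log2 intensity minus the gene's own mean over all arrays. Red is above and blue below the gene's mean. The 4 vehicle arrays are red in most rows, and the rows of Polr1c and Noc3l do not follow that pattern.

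The arrays separated by drug. In 36 of the 42 genes each of the 9 drug arrays lay below each of the 4 vehicle arrays, which was so for 17.2% of the genes tested. The 6 exceptions were Polr1c, Ubtf, Wdr43, Imp3, Rrs1 and Noc3l. The mean log2 level of the 42 genes was 9.36, 9.51 and 9.63 on the Pmel_D+T arrays, 9.79 and 9.48 on the Pmel_D arrays, 9.48 and 9.38 on the Pmel_T arrays and 10.34 and 10.41 on the Pmel_V arrays. It was 9.71 and 9.76 on the Mock_D+T arrays and 10.73 and 10.76 on the Mock_V arrays. No drug array overlapped a vehicle array in this mean, and the gap between them was wider than the spread within any group.

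The 3′ over 5′ ratio moved with the drugs in pmel-1 recipients. In control recipients, where 36 genes fell, the ratio was 1.004 and 1.04 on the Mock_D+T arrays and 1.24 and 1.01 on the Mock_V arrays. Within Pmel_D, replicate 1 had a ratio of 1.36 and a mean of 9.79, and replicate 2 had a ratio of 1.87 and a mean of 9.48. Within Pmel_T the order was the other way, with 1.78 and 9.48 for replicate 1 and 1.51 and 9.38 for replicate 2. In Pmel_D+T, ratios of 1.66, 1.81 and 1.46 went with means of 9.36, 9.51 and 9.63. With the ratio as a term in the fit, 30 of the 42 genes were called for Pmel_D+T against Pmel_V, 37 for Mock_D+T against Mock_V, 27 for Pmel_D and 31 for Pmel_T against Pmel_V, and all of these were lower with drug. The calls lost that way were Polr1b, Utp20, Wdr75, Heatr1, Rrs1 and Nop2 for Pmel_D+T, Polr1e, Bop1, Imp4 and Tsr1 for Pmel_D and Rrn3, Polr1b, Heatr1, Bop1 and Rrs1 for Pmel_T. The part of the cell type markers in the falls was not tested.

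**Figure D2:**
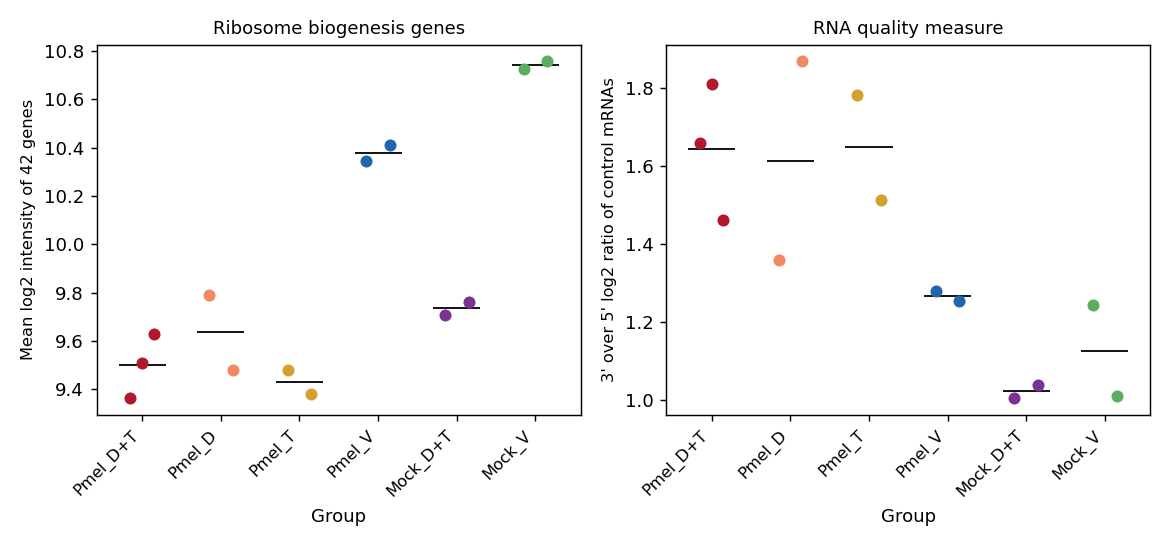
Left, the mean log2 intensity of the 42 genes on each array. Right, the log2 ratio of 3′ over 5′ probe sets of 4 control mRNAs on each array. Points are arrays and bars group means. In the left panel the 4 vehicle arrays are highest, and in the right panel the pmel-1 arrays given a drug are.

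The size of the fall differed from gene to gene. At least 2-fold falls were called in 14 genes for Pmel_D+T against Pmel_V (5.04% of genes tested), in 21 for Mock_D+T against Mock_V (4.13%), in 12 for Pmel_D (4.93%) and in 18 for Pmel_T (4.97%) against Pmel_V. The combination comparisons in pmel-1 and control recipients share no array, and 35 genes fell in both. Over all genes tested 21.2% fell in the first and 16.7% in the second, and the share that fell in both was not counted. Across the 42 genes the log2 changes of these comparisons correlated at r = 0.76 (Spearman rho 0.75). This describes genes, which are not independent replicates, and the same correlation over all genes tested was not computed. Pmel_T tumours had the lowest group mean for 28 genes, Pmel_D+T tumours for 9, and Mock_V tumours had the highest for 39. This order was not counted over all genes tested. None of the 42 genes was called between drug treatments in pmel-1 recipients or for Pmel_V against Mock_V.

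Promoters of these genes were searched for 2 motifs. MYC binds the E-box CACGTG, and ETS factors, which ERK signalling can activate, bind around CCGGAAG. The part of either motif in the falls was not tested. RefSeq promoters (GRCm38.p6, from 250 bases before to 50 after the start site) were matched for 37 of the 42 genes, the 5 others being Bop1, Fbl, Npm1, Rrp12 and Rrs1. Both strands were searched, a match seen from 2 start sites of 1 gene (Noc2l) was counted once, and no 2 of the matches so counted overlapped. CACGTG was found in 9 of 37 genes (24.32%), in 11.16% of 11083 genes tested on the arrays and in 8.09% of 27025 genes in the table. CCGGAAG was found in 13 of 37 genes (35.14%), in 18.16% of the genes tested and in 9.93% of all. Of 16 CCGGAAG matches 14 began within 50 bases of the nearest start site, as did 7 of 10 CACGTG matches. Positions were not counted for other genes, so this is not a trait particular to these. The sequences below were chosen for Rrn3, which holds 2 E-boxes, for Nop2 and Utp18, which hold both motifs within a short stretch, and for Nolc1 and Nhp2, which had the largest fall and the smallest p for Pmel_D+T against Pmel_V. Capitals mark the motifs, each sequence runs 5′ to 3′ on the gene's strand, and neither CCGGAAG match of Rrn3 is marked, since 1 begins in the last 5 printed bases and runs past them and the other lies past them.
Rrn3, chr16:13780449-13780698, plus strand: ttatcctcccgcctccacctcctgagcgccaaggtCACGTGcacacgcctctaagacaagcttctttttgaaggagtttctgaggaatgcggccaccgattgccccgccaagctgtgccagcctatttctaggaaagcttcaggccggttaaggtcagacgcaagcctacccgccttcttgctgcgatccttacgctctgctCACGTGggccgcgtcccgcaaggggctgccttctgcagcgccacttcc
Nop2, chr6:125131783-125131882, plus strand: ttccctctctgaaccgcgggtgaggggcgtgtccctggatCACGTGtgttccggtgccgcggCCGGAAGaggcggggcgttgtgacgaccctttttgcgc
Utp18, chr11:93885767-93885886, minus strand: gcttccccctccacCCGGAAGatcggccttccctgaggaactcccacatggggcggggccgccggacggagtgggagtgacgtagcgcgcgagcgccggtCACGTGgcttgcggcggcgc
Nolc1, chr19:46075747-46075846, plus strand: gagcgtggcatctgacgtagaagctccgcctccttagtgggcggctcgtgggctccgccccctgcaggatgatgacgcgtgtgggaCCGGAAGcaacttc
Nhp2, chr11:51619673-51619772, plus strand: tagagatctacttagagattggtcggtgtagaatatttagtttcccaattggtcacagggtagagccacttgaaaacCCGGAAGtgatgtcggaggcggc

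Falls were seen in genes with and without either motif. For Pmel_D+T against Pmel_V the median log2 change was -0.70 over the 9 genes with CACGTG and -0.89 over the others with a promoter, and it was -0.90 with CCGGAAG and -0.87 without. For Mock_D+T against Mock_V the medians were -0.997 with and -1.01 without CACGTG, and -1.02 with and -0.998 without CCGGAAG. The 9 genes with CACGTG were Rrn3, Imp4, Mybbp1a, Nop2, Pes1, Tsr1, Utp18, Utp20 and Wdr43. These are matches of letters and not measured binding.

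Among the RNA polymerase I genes the large catalytic subunit and the initiation factor fell in each drug comparison, while a shared subunit and the promoter factor did not. Of the 6, 4 fell with the combination in pmel-1 recipients and 4 in control recipients, 3 fell with dabrafenib and 4 with trametinib. Polr1a, the largest subunit, had log2 levels of 8.76, 8.79 and 8.84 in Pmel_D+T, 9.13 and 8.98 in Pmel_D and 8.66 and 8.56 in Pmel_T tumours, against 9.75 and 9.73 in Pmel_V tumours. It had 8.77 and 9.06 in Mock_D+T tumours, against 9.92 and 9.93 in Mock_V tumours. All 9 drug arrays lay below all vehicle arrays, and the gap exceeded the spread in every group. The log2 change was -0.94 ± 0.10 for Pmel_D+T (adjusted p = 4.15e-05), -0.69 ± 0.11 for Pmel_D and -1.13 ± 0.11 for Pmel_T against Pmel_V, and -1.01 ± 0.11 for Mock_D+T against Mock_V (± SE, limma).

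Rrn3, which carries RNA polymerase I to the ribosomal RNA promoter, had log2 levels of 9.36, 9.41 and 9.80 in Pmel_D+T, 9.83 and 9.14 in Pmel_D and 9.69 and 9.66 in Pmel_T tumours, against 10.48 and 10.59 in Pmel_V tumours. Its levels were 9.94 and 9.999 in Mock_D+T tumours, against 10.75 and 10.77 in Mock_V tumours. The drug arrays did not overlap the vehicle arrays, although the Pmel_D arrays lay apart from each other. Rrn3 fell, with a log2 change of -1.01 ± 0.18 for Pmel_D+T (adjusted p = 9.54e-04 in limma) and -1.05 ± 0.20 for Pmel_D against Pmel_V. It fell, with a log2 change of -0.87 ± 0.20 for Pmel_T against Pmel_V and -0.79 ± 0.20 for Mock_D+T against Mock_V. With the 3′ over 5′ ratio in the fit the trametinib change of Rrn3 was -0.50 (adjusted p = 0.0579 in limma).

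Polr1e, a polymerase I subunit related to yeast A49, fell, with a log2 change of -0.90 ± 0.19 for Pmel_D+T against Pmel_V and -1.22 ± 0.20 for Mock_D+T against Mock_V. Polr1b, the second largest subunit, fell, with a log2 change of -0.73 ± 0.19 for Pmel_D+T against Pmel_V and -0.74 ± 0.20 for Mock_D+T against Mock_V, and its dabrafenib change of -0.52 ± 0.20 did not pass (adjusted p = 0.0593 in limma). With the 3′ over 5′ ratio in the fit Polr1b had -0.41 for Pmel_D+T (adjusted p = 0.1375 in limma) and -0.50 for Pmel_T (adjusted p = 0.0994) against Pmel_V. Some calls were also lost without 1 array. Without Mock_D+T replicate 2 or Mock_V replicate 1 the change of Polr1b in control recipients was -0.65 or -0.68 and did not pass, nor did its trametinib change of -0.72 without Pmel_T replicate 1. Polr1e under dabrafenib was -0.44 without Pmel_D replicate 2 and -0.59 without Pmel_V replicate 2, neither of which passed.

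Polr1c, a subunit shared by RNA polymerases I and III, had log2 levels of 10.95, 11.20 and 10.94 in Pmel_D+T, 10.84 and 11.14 in Pmel_D and 11.001 and 10.56 in Pmel_T tumours, against 10.71 and 10.75 in Pmel_V tumours, and 10.77 and 10.73 in Mock_D+T against 10.92 and 10.73 in Mock_V tumours. Ubtf had 9.99, 10.19 and 10.30 in Pmel_D+T, 10.12 and 10.19 in Pmel_D and 10.48 and 10.21 in Pmel_T tumours, against 10.32 and 10.32 in Pmel_V tumours, and 10.04 and 10.18 in Mock_D+T against 10.497 and 10.38 in Mock_V tumours. For Polr1c the Pmel_D+T arrays lay above the Pmel_V arrays and for Ubtf just below them, and neither gene passed in any drug comparison. The log2 change of Polr1c was 0.30 ± 0.15 for Pmel_D+T against Pmel_V (adjusted p = 0.1227 in limma) and -0.08 ± 0.16 for Mock_D+T against Mock_V. That of Ubtf was -0.16 ± 0.12 for Pmel_D+T against Pmel_V (adjusted p = 0.2878) and -0.33 ± 0.13 for Mock_D+T against Mock_V (adjusted p = 0.0657 in limma).

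All 4 box C/D genes fell in each of the 4 drug comparisons, with a median log2 change of -1.48 for Pmel_D+T, -1.28 for Pmel_D and -1.67 for Pmel_T against Pmel_V and of -1.15 for Mock_D+T against Mock_V. Nop56, a scaffold of the particle, had log2 levels of 10.17, 10.23 and 10.34 in Pmel_D+T, 10.66 and 10.30 in Pmel_D and 10.12 and 9.99 in Pmel_T tumours, against 11.76 and 11.93 in Pmel_V tumours. Its levels were 10.73 and 10.67 in Mock_D+T tumours, against 12.17 and 12.26 in Mock_V tumours. Every drug array was more than 1 log2 unit below every vehicle array. Nop56 was 3.03-fold lower in Pmel_D+T (log2 change -1.598 ± 0.12, adjusted p = 5.09e-06 in limma), 2.57-fold lower in Pmel_D and 3.46-fold lower in Pmel_T than in Pmel_V tumours, and 2.86-fold lower in Mock_D+T than in Mock_V tumours.

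Nop58, the partner scaffold of Nop56, had log2 levels of 8.66, 9.37 and 9.40 in Pmel_D+T, 9.94 and 8.97 in Pmel_D and 8.80 and 9.31 in Pmel_T tumours, against 11.14 and 11.24 in Pmel_V tumours. In control recipients it had 10.18 and 10.19 in Mock_D+T tumours, against 11.07 and 11.29 in Mock_V tumours. The drug arrays of pmel-1 recipients spread over more than 1 log2 unit and all lay below those of Mock_D+T. Nop58 fell, with a log2 change of -2.05 ± 0.28 for Pmel_D+T (adjusted p = 1.82e-04 in limma), -1.73 ± 0.31 for Pmel_D and -2.14 ± 0.31 for Pmel_T against Pmel_V. It fell, with a log2 change of -1.001 ± 0.31 for Mock_D+T against Mock_V (adjusted p = 0.0260 in limma), a call lost without any 1 of the 4 arrays of control recipients, where the change was -1.11 to -0.89. Fbl, fibrillarin, the methyltransferase of the particle, fell, with a log2 change of -1.37 ± 0.14 for Pmel_D+T against Pmel_V and -1.30 ± 0.16 for Mock_D+T against Mock_V. Rrp9, a U3 particle protein, fell, with log2 changes of -0.85 ± 0.11 and -0.92 ± 0.12 in the same comparisons.

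All 5 box H/ACA genes also fell in each drug comparison, with a median log2 change of -1.59 for Pmel_D+T, -1.41 for Pmel_D and -1.73 for Pmel_T against Pmel_V and of -1.19 for Mock_D+T against Mock_V. Nolc1, the Nopp140 chaperone of these particles, had log2 levels of 7.88, 8.04 and 8.46 in Pmel_D+T, 8.76 and 7.88 in Pmel_D and 8.21 and 8.22 in Pmel_T tumours, against 10.22 and 10.25 in Pmel_V tumours. It had 8.86 and 8.84 in Mock_D+T tumours, against 10.59 and 10.62 in Mock_V tumours. Of the 42 genes it had the largest fall for Pmel_D+T against Pmel_V, 4.31-fold (log2 change -2.11 ± 0.22, adjusted p = 3.33e-05 in limma). It was 3.77-fold lower in Pmel_D and 4.06-fold lower in Pmel_T than in Pmel_V tumours and 3.38-fold lower in Mock_D+T than in Mock_V tumours.

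Nhp2, a core protein of the particle, had log2 levels of 10.91, 10.75 and 10.94 in Pmel_D+T, 11.10 and 10.84 in Pmel_D and 10.70 and 10.85 in Pmel_T tumours, against 12.53 and 12.47 in Pmel_V tumours. Its levels were 11.13 and 11.22 in Mock_D+T tumours, against 12.68 and 12.71 in Mock_V tumours. The drug arrays clustered closely and stood clear of the vehicle arrays. Nhp2 fell, with a log2 change of -1.64 ± 0.11 for Pmel_D+T (adjusted p = 2.74e-06 in limma), -1.53 ± 0.12 for Pmel_D and -1.73 ± 0.12 for Pmel_T against Pmel_V, and -1.52 ± 0.12 for Mock_D+T against Mock_V. Dkc1, dyskerin, the pseudouridine synthase, fell, with a log2 change of -1.59 ± 0.22 for Pmel_D+T against Pmel_V and -1.19 ± 0.24 for Mock_D+T against Mock_V. Nop10 and Gar1, the smaller core proteins, fell, with log2 changes of -0.88 ± 0.13 and -0.57 ± 0.09 for Pmel_D+T against Pmel_V, and -1.08 ± 0.14 and -0.75 ± 0.10 for Mock_D+T against Mock_V.

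**Figure D3:**
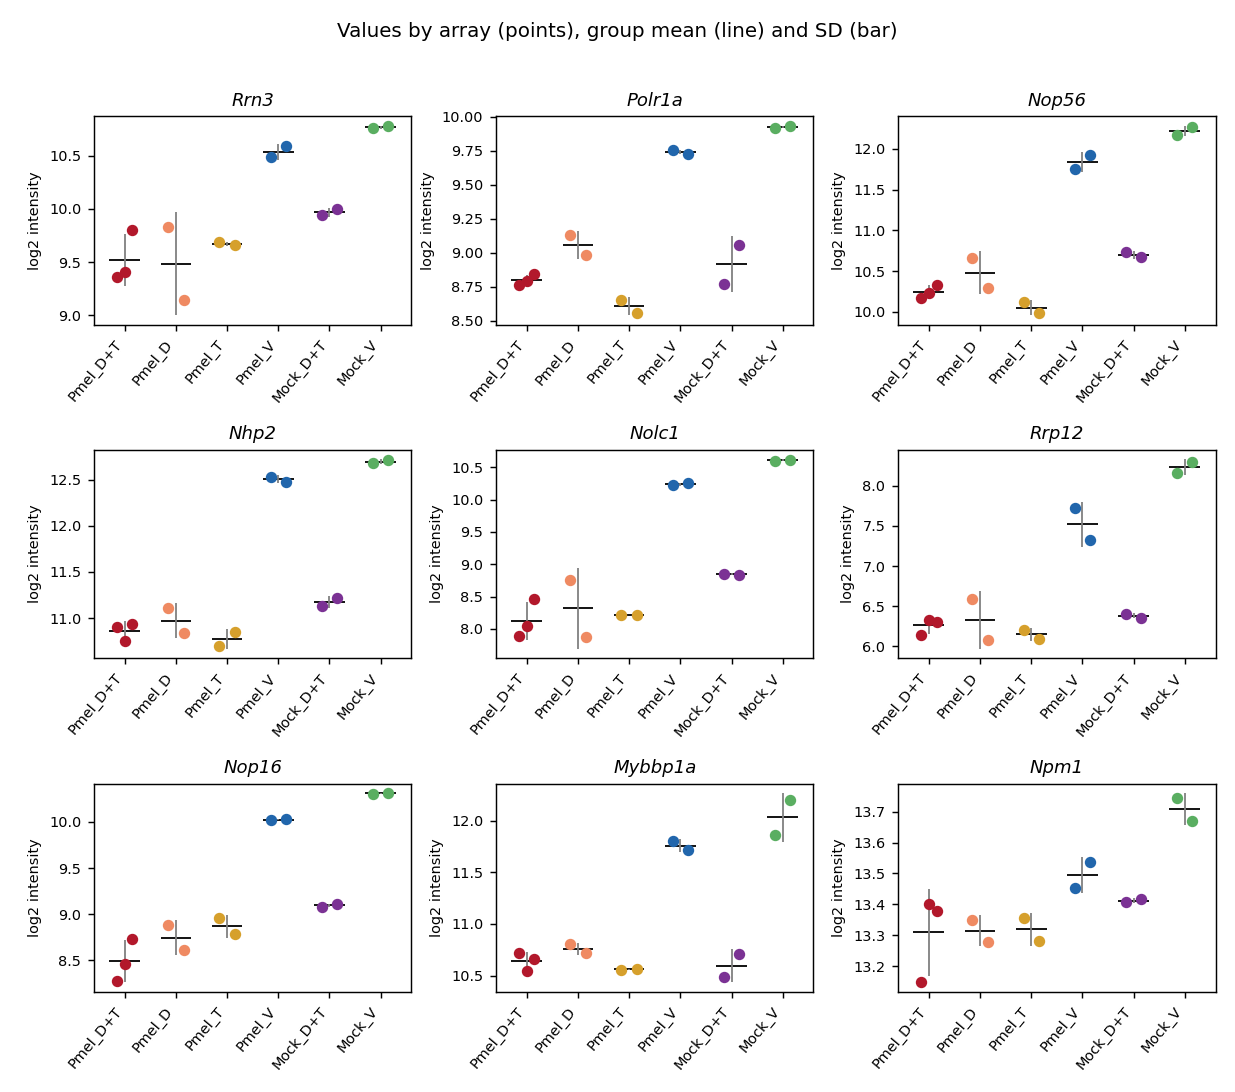
Log2 intensity of 9 of the genes on each array, by group. Points are arrays, bars group means with their SD. In Polr1a, Rrn3, Nop56, Nhp2, Nolc1, Rrp12, Nop16 and Mybbp1a the drug arrays lie below all vehicle arrays by a wide gap, and in Npm1 the gap is narrow.

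Most small subunit genes fell. Of the 12, 10 fell for Pmel_D+T against Pmel_V with a median of -0.66, and 11 for Mock_D+T against Mock_V with a median of -1.02. Dabrafenib lowered 8 (median -0.52) and trametinib 10 (median -0.77) against Pmel_V. Rrp12, an export and maturation factor of the pre-ribosomal subunits, had log2 levels of 6.14, 6.33 and 6.30 in Pmel_D+T, 6.59 and 6.07 in Pmel_D and 6.20 and 6.09 in Pmel_T tumours, against 7.72 and 7.32 in Pmel_V tumours. It had 6.403 and 6.36 in Mock_D+T tumours, against 8.17 and 8.30 in Mock_V tumours. The drug arrays lay near the filter level of 5.79 and below all vehicle arrays, and Pmel_V lay below Mock_V. Rrp12 fell, with a log2 change of -1.26 ± 0.16 for Pmel_D+T against Pmel_V (adjusted p = 9.28e-05 in limma) and -1.85 ± 0.17 for Mock_D+T against Mock_V (adjusted p = 2.21e-05), and with the drug arrays so near the filter level these sizes are not exact.

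Tsr1, a late 40S factor, and the processome genes Wdr75 and Nop14 fell for Pmel_D+T against Pmel_V, with log2 changes of -0.70 ± 0.15, -0.69 ± 0.15 and -0.79 ± 0.11, and for Mock_D+T against Mock_V, with -1.25 ± 0.16, -1.05 ± 0.16 and -0.63 ± 0.12. Bysl, bystin, which acts in late 40S maturation, fell, with a log2 change of -0.88 ± 0.12 for Pmel_D+T against Pmel_V and -1.40 ± 0.13 for Mock_D+T against Mock_V. Utp18, a processome protein, fell, with log2 changes of -0.98 ± 0.13 and -1.34 ± 0.14 in the same comparisons, and Utp20, a processome scaffold, fell, with -0.63 ± 0.15 and -1.29 ± 0.17. Heatr1, the homologue of yeast Utp10, which is needed for ribosomal RNA transcription and processing, fell, with a log2 change of -0.38 ± 0.11 for Pmel_D+T against Pmel_V (adjusted p = 0.0131 in limma) and -0.78 ± 0.12 for Mock_D+T against Mock_V. Noc4l fell, with log2 changes of -0.41 ± 0.10 and -0.99 ± 0.11 in these comparisons. Several of these calls for Pmel_D+T against Pmel_V were lost in other fits. Heatr1 had -0.14 (adjusted p = 0.3303 in limma) with all probe sets averaged, -0.30 (adjusted p = 0.1228) with the 3′ over 5′ ratio in the fit and -0.33 without Pmel_V replicate 1. Noc4l had -0.36 without Pmel_V replicate 1 and -0.36 with its probe set of largest variance. Wdr75 had -0.30 (adjusted p = 0.0568) with all probe sets averaged and -0.48 (adjusted p = 0.0521) with the ratio, and Utp20 had -0.49 (adjusted p = 0.0827) with the ratio.

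Imp3, a U3 particle protein, passed in none of the drug comparisons, with log2 changes of -0.18 ± 0.11 for Pmel_D+T, -0.08 ± 0.12 for Pmel_D and -0.31 ± 0.12 for Pmel_T against Pmel_V and of -0.33 ± 0.12 for Mock_D+T against Mock_V. Its partner Imp4 fell, with a log2 change of -0.64 ± 0.11 for Pmel_D+T against Pmel_V and -0.76 ± 0.12 for Mock_D+T against Mock_V. Wdr43, a processome protein linked to polymerase I transcription, had log2 levels of 8.62, 9.24 and 9.16 in Pmel_D+T tumours, against 9.20 and 9.44 in Pmel_V tumours, and of 9.17 and 9.15 in Mock_D+T tumours, against 10.12 and 9.71 in Mock_V tumours. Its arrays overlapped between Pmel_D+T and Pmel_V, where the change was -0.31 ± 0.23 (adjusted p = 0.2938 in limma), and not between Mock_D+T and Mock_V, where it fell, with a log2 change of -0.75 ± 0.25 (adjusted p = 0.0347). The second call was lost without Mock_D+T replicate 2, Mock_D+T replicate 3 or Mock_V replicate 1, with changes of -0.76, -0.75 and -0.55.

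Of the 10 genes of 60S assembly 9 fell for Pmel_D+T against Pmel_V, 8 for Mock_D+T against Mock_V, 7 with dabrafenib and 9 with trametinib. Nop16, a nucleolar 60S factor, had log2 levels of 8.28, 8.46 and 8.73 in Pmel_D+T, 8.88 and 8.61 in Pmel_D and 8.96 and 8.78 in Pmel_T tumours, against 10.02 and 10.03 in Pmel_V tumours. It had 9.08 and 9.11 in Mock_D+T tumours, against 10.31 and 10.31 in Mock_V tumours. No drug array overlapped a vehicle array. The group mean was lowest in Pmel_D+T, although its arrays overlapped those of Pmel_D. Nop16 fell, with a log2 change of -1.54 ± 0.13 for Pmel_D+T (adjusted p = 1.01e-05 in limma), -1.28 ± 0.15 for Pmel_D and -1.15 ± 0.15 for Pmel_T against Pmel_V, and -1.22 ± 0.15 for Mock_D+T against Mock_V. Noc2l, whose yeast homologue helps move pre-60S particles out of the nucleolus, fell, with a log2 change of -1.37 ± 0.17 for Pmel_D+T against Pmel_V and -1.49 ± 0.19 for Mock_D+T against Mock_V.

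Pes1, Bop1 and Wdr12 form the PeBoW complex of 60S maturation. Pes1 fell, with a log2 change of -0.86 ± 0.09, Bop1 -0.66 ± 0.12 and Wdr12 -0.89 ± 0.16 for Pmel_D+T against Pmel_V. For Mock_D+T against Mock_V they fell, with a log2 change of -0.87 ± 0.10, -0.98 ± 0.14 and -0.96 ± 0.17. The dabrafenib change of Bop1, -0.39 ± 0.14 (adjusted p = 0.0391 in limma), was the called value nearest the threshold in that comparison. It was -0.21 without Pmel_D replicate 2, -0.39 without Pmel_V replicate 1 and -0.39 without Pmel_V replicate 2, none of which passed. With all its probe sets averaged Bop1 had -0.15 for Pmel_D+T (adjusted p = 0.3321 in limma), 0.25 for Pmel_D and -0.05 for Pmel_T (adjusted p = 0.7890) against Pmel_V.

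Nip7, which is needed for 60S maturation in yeast, had log2 changes of -1.19 ± 0.15 for Pmel_D+T against Pmel_V and -1.02 ± 0.17 for Mock_D+T against Mock_V, and Nop2, a ribosomal RNA methyltransferase, had -0.65 ± 0.16 and -0.997 ± 0.18. All 4 values passed, and that of Nop2 in pmel-1 recipients was lost without Pmel_V replicate 2 (-0.52) and with the 3′ over 5′ ratio in the fit (-0.48).

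Rrp1b, a nucleolar 60S protein, had log2 levels of 7.77, 7.78 and 7.72 in Pmel_D+T tumours, against 8.32 and 9.07 in Pmel_V tumours, and of 7.77 and 7.83 in Mock_D+T tumours, against 9.64 and 9.52 in Mock_V tumours. The combination arrays lay close together, while the Pmel_V arrays lay far apart. It fell, with a log2 change of -0.94 ± 0.18 for Pmel_D+T against Pmel_V and -1.78 ± 0.20 for Mock_D+T against Mock_V. Rrs1, which brings 5S ribosomal RNA into the large subunit, fell, with a log2 change of -0.62 ± 0.22 for Pmel_D+T against Pmel_V (adjusted p = 0.0393 in limma), the called value nearest the threshold, while its change of -0.59 ± 0.24 for Mock_D+T against Mock_V did not pass (adjusted p = 0.0811). Its call in pmel-1 recipients was lost without Pmel_D+T replicate 1 (-0.45), Pmel_V replicate 1 (-0.73), Pmel_V replicate 2 (-0.50) or either Mock_D+T array (-0.62). Noc3l overlapped between drug and vehicle arrays, with 7.79, 8.32 and 8.35 in Pmel_D+T against 7.53 and 7.93 in Pmel_V tumours and 8.32 and 8.56 in Mock_D+T against 8.62 and 8.46 in Mock_V tumours. Its log2 change was 0.43 ± 0.19 for Pmel_D+T against Pmel_V (adjusted p = 0.0992 in limma) and -0.10 ± 0.21 for Mock_D+T against Mock_V. Without Pmel_D+T replicate 1 Noc3l rose for Pmel_D+T against Pmel_V (0.61, adjusted p = 0.0176 in limma) and for Pmel_D against Pmel_V (0.55, adjusted p = 0.0285), and without Pmel_V replicate 2 it rose for Pmel_D against Pmel_V (0.75, adjusted p = 0.0471).

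Of the 5 abundant nucleolar proteins all but Npm1 fell in each drug comparison. Mybbp1a, a nucleolar partner of several transcription factors, had log2 levels of 10.72, 10.54 and 10.66 in Pmel_D+T, 10.80 and 10.72 in Pmel_D and 10.55 and 10.56 in Pmel_T tumours, against 11.80 and 11.71 in Pmel_V tumours. It had 10.48 and 10.71 in Mock_D+T tumours, against 11.87 and 12.20 in Mock_V tumours. No drug array reached a vehicle array. Mybbp1a fell, with a log2 change of -1.12 ± 0.12 for Pmel_D+T (adjusted p = 3.41e-05 in limma), -0.996 ± 0.13 for Pmel_D and -1.20 ± 0.13 for Pmel_T against Pmel_V, and -1.44 ± 0.13 for Mock_D+T against Mock_V.

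Ncl, nucleolin, had 12.61, 12.68 and 12.64 in Pmel_D+T against 13.38 and 13.37 in Pmel_V tumours and fell, with a log2 change of -0.73 ± 0.09. It fell, with a log2 change of -0.82 ± 0.10 for Mock_D+T against Mock_V. Ddx21, an RNA helicase of the nucleolus, fell, with a log2 change of -1.53 ± 0.22 for Pmel_D+T against Pmel_V and -1.18 ± 0.24 for Mock_D+T against Mock_V, and Gnl3, nucleostemin, fell, with -1.01 ± 0.16 and -0.91 ± 0.18. Npm1, nucleophosmin, had 13.15, 13.40 and 13.38 in Pmel_D+T, 13.35 and 13.28 in Pmel_D and 13.36 and 13.28 in Pmel_T tumours, against 13.45 and 13.54 in Pmel_V tumours, and 13.41 and 13.42 in Mock_D+T against 13.74 and 13.67 in Mock_V tumours. Its arrays did not overlap within either kind of recipient but lay close together. The log2 change of Npm1 was -0.18 ± 0.10 for Pmel_D+T against Pmel_V (adjusted p = 0.1546 in limma) and -0.30 ± 0.11 for Mock_D+T against Mock_V (adjusted p = 0.0530), and neither passed.

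**Figure D4:**
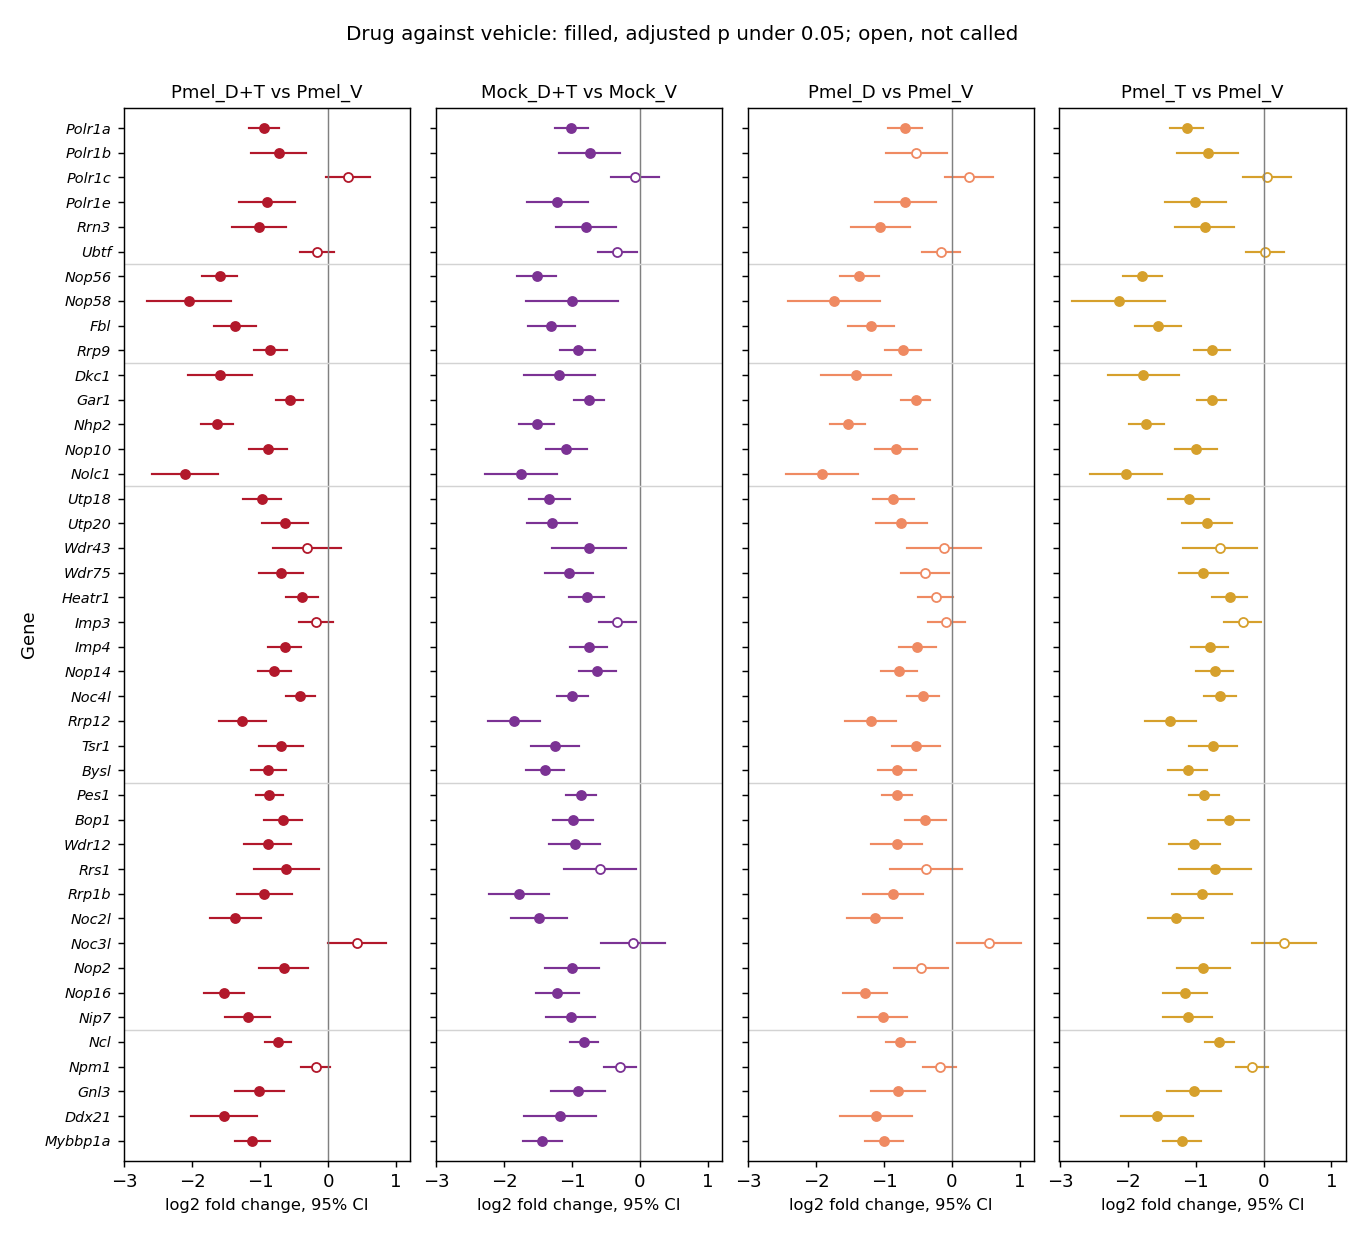
Log2 change of each of the 42 genes with its 95% confidence interval in the 4 comparisons of drug with vehicle; lines separate the roles. Filled points passed at an adjusted p under 0.05. Nolc1 and Nop58 lie farthest left in pmel-1 recipients and Rrp12, Rrp1b and Nolc1 in control recipients, and the points of Polr1c, Ubtf, Imp3, Noc3l and Npm1 are open in every panel.

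Set against each other in pmel-1 recipients, the drug treatments did not differ past the threshold in any of the 42 genes. For Pmel_D against Pmel_T none was called, where 0.776% of genes tested were. Of the 42, 9 had an unadjusted p under 0.05 in limma, as had 1620 of the 13785 genes tested. The median log2 difference was 0.21, and 36 of the 42 genes were higher in Pmel_D, against 51.6% of genes tested. The smallest p was that of Polr1a, with a mean of 9.06 ± 0.11 in Pmel_D and 8.61 ± 0.07 in Pmel_T tumours (SD, n = 2 each) and a difference of 0.45 ± 0.11 (95% interval 0.20 to 0.70, adjusted p = 0.1098 in limma). Nop56 differed by 0.43 ± 0.13 (adjusted p = 0.1849) and Wdr75 by 0.49 ± 0.16 (adjusted p = 0.2265 in limma).

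For Pmel_D+T against Pmel_D none was called and 2 had an unadjusted p under 0.05 in limma, and 0.0% of all genes tested were called. The median difference was -0.13, and 37 genes were lower in Pmel_D+T, against 48.5% of genes tested. Polr1a differed by -0.26 ± 0.10 (95% interval -0.48 to -0.03), Bop1 differed by -0.27 ± 0.12 and Wdr75 by -0.30 ± 0.15, each with an adjusted p of 1 in limma. For Pmel_D+T against Pmel_T none was called, against 1.1% of genes tested, and 2 had an unadjusted p under 0.05 in limma. The median difference was 0.10, and 30 genes were higher in Pmel_D+T, against 51.6% of genes tested. Nop16 differed by -0.38 ± 0.13 (95% interval -0.67 to -0.09, adjusted p = 0.2173 in limma), Noc4l by 0.23 ± 0.10 and Gar1 by 0.20 ± 0.09. These 3 comparisons share arrays with each other.

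Between the kinds of transfer few of the genes passed. Under vehicle 40 of the 42 genes were lower in pmel-1 than in control recipients, against 54.6% of genes tested, with a median difference of -0.35. None was called and 0.0% of genes tested were. An unadjusted p under 0.05 in limma was found for 22 of the 42 and for 1822 of the 13785 genes tested. Rrp1b averaged 8.70 ± 0.53 in Pmel_V and 9.58 ± 0.09 in Mock_V tumours (SD, n = 2 each) and differed by -0.88 ± 0.20 (95% interval -1.33 to -0.44, adjusted p = 0.1745 in limma). Rrp12 differed by -0.71 ± 0.17 and Tsr1 by -0.67 ± 0.16, both with an adjusted p of 0.1789 in limma. Without Pmel_V replicate 2, 1 gene, Rrp1b, was called in this comparison, and it was lower in Pmel_V.

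Under the combination 35 of the 42 genes were lower in pmel-1 than in control recipients, against 51.4% of genes tested, and the median difference was -0.18. Nop16 and Ddx21 fell, where 1.58% of genes tested fell. An unadjusted p under 0.05 in limma was found for 11 of the 42 and for 3342 of the 13785 genes tested, a similar share. Nop16 averaged 8.49 ± 0.23 in Pmel_D+T (SD, n = 3) and 9.09 ± 0.02 in Mock_D+T tumours (SD, n = 2) and differed by -0.61 ± 0.13 (adjusted p = 0.0324 in limma). Ddx21 had 7.99, 8.29 and 8.70 in Pmel_D+T and 9.26 and 9.21 in Mock_D+T tumours and differed by -0.91 ± 0.22 (adjusted p = 0.0453 in limma). Nop56 differed by -0.46 ± 0.12 (adjusted p = 0.0560) and Nop58 by -1.04 ± 0.28 (adjusted p = 0.0624 in limma), and neither passed. The number called was 0 to 7 when 1 array was left out. It was 0 without Pmel_D+T replicate 1 or 2, either Pmel_V array or either Mock_D+T array, 1 without either Pmel_T or either Mock_V array, 5 without Pmel_D+T replicate 3 and 7 without either Pmel_D array. With the 3′ over 5′ ratio in the fit it was 0, and the ratio was 1.46 to 1.81 on the Pmel_D+T arrays and 1.004 and 1.04 on the Mock_D+T arrays.

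None of the 42 genes passed the test of whether the effect of the combination differed by transfer. For the interaction, the change in pmel-1 recipients minus that in control recipients, none of the 42 was called, against 0.283% of genes tested. Of the 42, 8 had an unadjusted p under 0.05 in limma, as had 2204 of the 13785 genes tested. The median over the 42 was 0.12. Noc4l had 0.58 ± 0.14 (adjusted p = 0.1262 in limma), Rrp1b 0.84 ± 0.27 (adjusted p = 0.1917 in limma) and Bysl 0.52 ± 0.18 (adjusted p = 0.2026 in limma), and Nop58 had the lowest value, -1.05 ± 0.42. In simulated data this contrast recovered 60% of 2-fold differences, against 96% for Pmel_D+T and Pmel_V and 89.5% for Mock_D+T and Mock_V. The simulation drew independent noise and changed 200 of 13785 genes. In the tumours 6282 genes were called for Pmel_D+T against Pmel_V and 4874 for Mock_D+T against Mock_V, so these shares need not hold there.

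Other probe sets of the same genes mostly moved the same way. Fitted separately, 63 of the 81 probe sets above the filter fell for Pmel_D+T against Pmel_V (23.6% of probe sets tested), 65 for Mock_D+T against Mock_V (15.2%), 56 for Pmel_D (21.1%) and 64 for Pmel_T (20.6%) against Pmel_V. These counts include the main probe sets. Of the 39 other probe sets 27, 29, 25 and 28 fell in these comparisons, and 1 rose for Pmel_D against Pmel_V. Of the genes whose main probe set did not pass for Pmel_D+T against Pmel_V, 3 had another probe set that fell. The second probe set of Npm1 read 12.25, 12.30 and 12.45 in Pmel_D+T against 13.10 and 13.21 in Pmel_V tumours and fell, with a log2 change of -0.82 ± 0.12, and its change was -0.42 ± 0.14 for Mock_D+T against Mock_V. That of Wdr43 fell, with log2 changes of -0.99 ± 0.14 and -0.93 ± 0.16 in these comparisons. That of Ubtf changed by -1.26 ± 0.15 for Pmel_D+T against Pmel_V, but all 3 Pmel_D+T arrays lay under 5.79, so the size is not exact, and by -0.37 ± 0.16 for Mock_D+T against Mock_V, which did not pass. Other probe sets of Polr1c (-0.21 ± 0.10) and Noc3l (-0.35 ± 0.14) did not pass for Pmel_D+T against Pmel_V.

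The probe sets of Bop1 disagreed. Its other probe set changed by 0.36 ± 0.15 for Pmel_D+T and by 0.41 ± 0.17 for Pmel_T against Pmel_V, neither of which passed, and it rose by 0.89 ± 0.17 for Pmel_D against Pmel_V (adjusted p = 0.0019 in limma), opposite to the main probe set. The other probe set of Pes1 changed by -0.16 ± 0.18 for Pmel_D+T against Pmel_V and by -0.03 ± 0.20 for Mock_D+T against Mock_V, and neither passed. The 3 other probe sets of Ncl fell for Pmel_D+T against Pmel_V, with log2 changes of -2.07 ± 0.21, -0.56 ± 0.10 and -0.75 ± 0.14.

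Further genes of the pathway were taken from lists of known factors. Over all genes tested 21.2% fell and 24.3% rose for Pmel_D+T against Pmel_V. For Mock_D+T against Mock_V 16.7% fell and 18.7% rose. Of 10 snoRNP assembly factors tested, 8 fell and 1 rose (Pih1d1) for Pmel_D+T against Pmel_V (median -0.93) and 8 fell for Mock_D+T against Mock_V (median -0.86), among them the nucleolar gene Tcof1 (treacle), Nufip1 and the ATPase gene Ruvbl2. Their log2 changes were -1.05 ± 0.11 and -1.34 ± 0.12 for Tcof1, -1.05 ± 0.13 and -0.92 ± 0.15 for Nufip1, and -1.23 ± 0.16 and -1.03 ± 0.17 for Ruvbl2 in these comparisons. Of 45 other 40S assembly genes 32 and 38 fell in these comparisons and none rose (medians -0.51 and -0.64). Pno1 fell, with log2 changes of -1.87 ± 0.17 and -1.42 ± 0.19, and Tsr2 fell, with -1.23 ± 0.12 and -1.05 ± 0.13. Of 52 other 60S assembly genes 34 fell and 2 rose (Rpf2 and Zfp622) for Pmel_D+T against Pmel_V, and 36 fell and 1 rose (Nop53) for Mock_D+T against Mock_V (medians -0.53 and -0.64). Ebna1bp2 fell, with log2 changes of -1.45 ± 0.17 and -1.16 ± 0.19 and the helicase gene Ddx27 fell, with -1.40 ± 0.13 and -0.98 ± 0.15.

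Genes of the RNA exosome, which trims and degrades ribosomal RNA precursors, also fell. Of 15 genes listed for the exosome, its cofactors and the separate exonuclease Xrn2, 13 fell in each of the combination comparisons and none rose. In pmel-1 recipients 21.2% of genes tested fell, and in control recipients 16.7%. The nuclease gene Dis3 fell, with a log2 change of -2.08 ± 0.18 for Pmel_D+T against Pmel_V and -1.44 ± 0.19 for Mock_D+T against Mock_V, and Exosc2 fell, with -1.46 ± 0.11 and -1.33 ± 0.12. Other RNA polymerase I genes were mixed. Of 9, 3 fell and 1 rose (Taf1c) for Pmel_D+T against Pmel_V, where 21.2% of genes tested fell and 24.3% rose. For Mock_D+T against Mock_V 1 fell (Cd3eap) and 1 rose (Ttf1), where 16.7% fell and 18.7% rose. Taf1b, a subunit of the polymerase I promoter selectivity factor, fell, with a log2 change of -1.17 ± 0.21 for Pmel_D+T against Pmel_V, and its change of -0.08 ± 0.23 for Mock_D+T against Mock_V did not pass. Taf1c, of the same factor, rose by 0.40 ± 0.10 for Pmel_D+T against Pmel_V. Of 21 RNA polymerase III genes 9 fell and 4 rose for Pmel_D+T against Pmel_V, where 21.2% and 24.3% of genes tested did. For Mock_D+T against Mock_V 4 fell and 1 rose, where 16.7% and 18.7% did. Maf1, a repressor of RNA polymerase III, was among those that rose in each. Polr3g fell, with log2 changes of -0.82 ± 0.14 and -1.33 ± 0.15 in these comparisons.

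For the genes of the ribosome itself the median log2 changes were -0.10 for Pmel_D+T against Pmel_V and -0.03 for Mock_D+T against Mock_V. Of 44 cytosolic ribosomal protein genes 9 fell and 1 rose (Rpl27a) for Pmel_D+T against Pmel_V, where 21.2% of genes tested fell and 24.3% rose. For Mock_D+T against Mock_V 3 fell and none rose, where 16.7% fell and 18.7% rose. Rps27l fell, with log2 changes of -0.88 ± 0.14 and -0.49 ± 0.16, Rps25 -0.63 ± 0.14 and -0.95 ± 0.15 and Rpl12 -0.71 ± 0.17 and -0.97 ± 0.19. The median level of the 45 listed genes on the array was 14.01, and the highest values of the arrays were 14.94 to 15.06, a range in which array signal can saturate. Whether saturation narrowed these changes was not tested.

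In the MYC network Max and some of the repressors that pair with it rose, while Myc did not pass in any comparison. Myc had log2 levels of 10.55, 10.75 and 11.10 in Pmel_D+T, 11.39 and 10.63 in Pmel_D and 10.64 and 10.38 in Pmel_T tumours, against 10.89 and 11.30 in Pmel_V tumours. It had 11.21 and 11.25 in Mock_D+T tumours, against 11.37 and 10.89 in Mock_V tumours. Drug and vehicle arrays overlapped in each comparison except that of Pmel_T, whose arrays lay below those of Pmel_V. The log2 change of Myc was -0.30 ± 0.24 for Pmel_D+T (adjusted p = 0.3495 in limma), -0.08 ± 0.26 for Pmel_D (adjusted p = 0.8349) and -0.59 ± 0.26 for Pmel_T (adjusted p = 0.0994) against Pmel_V. It was 0.095 ± 0.26 for Mock_D+T against Mock_V (adjusted p = 0.8232 in limma).

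Mxd1, which pairs with Max and represses E-box genes, had log2 levels of 9.86, 10.04 and 10.02 in Pmel_D+T, 9.71 and 10.10 in Pmel_D and 10.30 and 10.17 in Pmel_T tumours, against 8.65 and 8.66 in Pmel_V tumours. Its levels were 9.92 and 10.15 in Mock_D+T tumours, against 8.54 and 8.06 in Mock_V tumours. Every drug array was more than 1 log2 unit above every vehicle array. Mxd1 rose by 1.32 ± 0.16 for Pmel_D+T (adjusted p = 6.99e-05 in limma), 1.25 ± 0.17 for Pmel_D and 1.58 ± 0.17 for Pmel_T against Pmel_V, and by 1.74 ± 0.17 for Mock_D+T against Mock_V. Mxd4, of the same family, rose by 0.82 ± 0.18 for Pmel_D+T against Pmel_V and by 1.19 ± 0.19 for Mock_D+T against Mock_V. Mnt, another repressor that pairs with Max, rose by 0.76 ± 0.12 and 0.64 ± 0.13, and Max by 0.56 ± 0.09 and 0.34 ± 0.10. Mxd3 rose by 0.51 ± 0.15 for Pmel_D+T against Pmel_V and had 0.20 ± 0.17 for Mock_D+T against Mock_V, which did not pass, while Mxi1 had 0.08 ± 0.09, which did not pass, and rose by 0.49 ± 0.10. Of the 11 network genes 5 rose in each combination comparison, where 24.3% and 18.7% of genes tested rose, none fell for Pmel_D+T against Pmel_V, and Mlxip fell, with a log2 change of -0.42 ± 0.14 for Mock_D+T against Mock_V. None of Mxd1, Mxd4, Mnt and Max was called between drug treatments or between transfers.

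**Figure D5:**
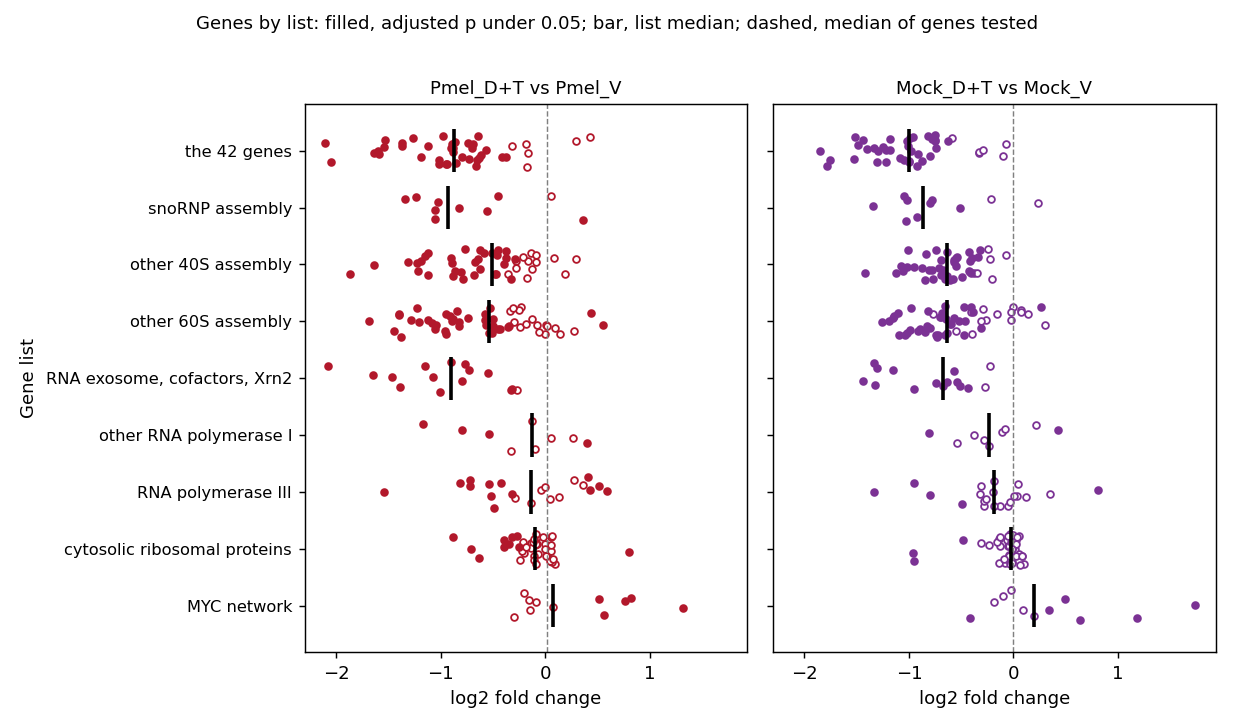
Log2 change of each gene tested in the 42 genes and in 8 lists of related genes, for the combination against vehicle in pmel-1 recipients (left) and control recipients (right). Filled points passed at an adjusted p under 0.05, bars are list medians and the dashed line is the median of all genes tested. The assembly lists lie left of the line, the ribosomal proteins close to it, and Mxd1 farthest right.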

How the data were processed

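RNA of SM1 tumours was measured on 13 Affymetrix mouse arrays. The deposited values are on a log2 scale, 1 per probe set, made with RMA in affy per the submitters' processing notes, which give no version. RMA puts all arrays on 1 distribution, so a change shared by most genes would not be seen. Groups follow the sample titles. Of 18193 gene symbols, each read from its brightest probe set, 13785 exceeded 5.79 (percentile 40 of the whole table) on 2 or more arrays and were tested. A model of 6 group means was fitted to the 13 arrays in limma 3.58.1 (R 4.3.3), with 10 contrasts and eBayes, with Benjamini-Hochberg adjustment over all genes. At 2-fold the fit recovered 60% (interaction) to 96% of 200 genes changed in simulated data with independent noise, a setting simpler than the tumours. The alternatives are other probe set rules, filters, scalings and fits, and each array left out.

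The 42 genes and the other lists were chosen with earlier results of these data known. Named with their errors are the genes with the largest called changes whose arrays do not overlap, those nearest the threshold, the smallest p of each role and, where nothing was called, the 3 smallest p. Other genes were named after their values were seen.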

Additional observations from a re-analysis of the deposited data

How the results depend on the processing

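There were 24 alternatives, 13 of which left out 1 array. In the 4 drug comparisons called genes were all lower with drug, except that Noc3l rose for Pmel_D+T against Pmel_V with array weights (0.52) and for Pmel_D against Pmel_V under quantile normalization (0.57), and without the arrays named for it above. For Pmel_D+T against Pmel_V the number called was 34 to 36 with an array left out and 30 to 37 otherwise, for Mock_D+T against Mock_V 33 to 38 and 35 to 40, for Pmel_D 25 to 33 and 22 to 32, and for Pmel_T against Pmel_V 34 to 37 and 31 to 38. The lowest Pmel_D count came without the 3 arrays highest in the adipocyte gene Adipoq, which left 1 array in Pmel_D and 1 in Pmel_T. These were Pmel_D+T replicate 2, Pmel_D replicate 2 and Pmel_T replicate 1. They also had the 3 highest 3′ over 5′ ratios, 1.81, 1.87 and 1.78, so this alternative is not separate from the fit with the ratio. Called under every alternative were 27 of 36, 32 of 36, 19 of 31 and 30 of 36 genes in these comparisons. None of the 42 genes was called in the 3 comparisons between drug treatments or for the interaction under any alternative. For Pmel_V against Mock_V the count was 0 to 1 with an array left out. For Pmel_D+T against Mock_D+T it was 0 to 7 with an array left out, 9 with the probe set of largest variance, 1 when other arrays were dropped from the fit, 1 with array weights, 0 with the 3′ over 5′ ratio in the fit and 1 without the 3 arrays highest in Adipoq, against 2; the cause was not tested. Over all genes tested, 3304 were called for Pmel_D against Pmel_V without the 3 arrays highest in Adipoq, against 5709, and with the 3′ over 5′ ratio in the fit 4098 were called for Pmel_D+T against Pmel_V, against 6282, and 15 for Pmel_D+T against Mock_D+T, against 584. Bop1 for Pmel_D against Pmel_V had 0.25 with all probe sets averaged. The deviations of same-numbered arrays from their group means correlated at r from -0.46 to 0.45 (23 pairs). In groups of 2 arrays these deviations mirror each other, so the check cannot decide whether the numbers pair arrays. The main fit was unpaired. With the replicate number as a block 35, 35, 30 and 35 genes fell in the 4 drug comparisons and 0 for Pmel_D+T against Mock_D+T. The probe sets fitted separately were added after the data were seen. Groups of 2 or 3 arrays limit what can be detected, and levels near 5.79 are not well above background.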

Other observations

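Genes of DNA replication fell beside the ribosome genes. Of 18, 17 fell for Pmel_D+T, 16 for Pmel_D and 17 for Pmel_T against Pmel_V, and 18 for Mock_D+T against Mock_V, with medians of -1.03, -1.25, -1.25 and -0.97. Over all genes tested 21.2%, 19.6%, 19.1% and 16.7% fell in these comparisons. Cdc6, which loads the replicative helicase, fell, with a log2 change of -2.10 ± 0.18 for Pmel_D+T against Pmel_V and -2.61 ± 0.20 for Mock_D+T against Mock_V. Mcm6, a helicase subunit, had -1.72 ± 0.14 and -1.49 ± 0.15. Of 10 known targets of ERK signalling 6 fell for Pmel_D+T against Pmel_V and 4 for Mock_D+T against Mock_V, where 1 rose. Of all genes tested 21.2% and 16.7% fell in these comparisons, and 18.7% rose for Mock_D+T against Mock_V. The ETS factor gene Etv4 fell, with -3.28 ± 0.11 and -3.30 ± 0.12, as did Egr1, with -2.87 ± 0.31 and -1.97 ± 0.34, and Ccnd1, cyclin D1, with -2.24 ± 0.37 and -1.96 ± 0.41 in these comparisons. Between drug treatments none of these 2 lists' genes was called in limma, where 18 and 10 genes were tested.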
